A study of Mus musculus with 4 samples.

Results

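The genes described here are 33 genes of mitosis that do not encode a motor of the main mitotic kinesin list. Included are cyclins and kinases of mitotic entry, the chromosomal passenger complex, kinetochore and spindle checkpoint proteins, partners of ubiquitin ligases, spindle and cytokinesis proteins. The 33 were chosen by symbol, with earlier results of these data known, from the 35857 genes listed per library, and each symbol occurred once. All 33 were among the 13260 genes that passed the filter on low values, a 4-library mean of 1 TPM or more. Cenpe, a kinesin of the kinetochore, is the exception to the name and was kept among the kinetochore genes. The values are TPM (from RNA sequencing), a level per transcript length and a share of each library's total, so levels of different genes can be set side by side.

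Cells from the cerebral cortex of C57BL/6 mouse embryos, labelled as neural stem cells, were sampled as day 1 glial progenitors, 24 hr into an induced differentiation to glia. There were 2 control libraries of wild type genotype and 2 libraries of genotype Qk-/-, called Qk_KO. Qk encodes the RNA-binding protein Quaking, and the protein itself was not measured. How the Qk gene was deleted, and whether libraries of 1 group came from separate cultures or animals, is not given in the sources used here. The Qk_KO libraries differ in sex by their transcripts, as given further on, so they had separate sources. For the control libraries this is not known, and p-values then measure a spread that may in part be technical.

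A cell enters mitosis when cyclin B binds and activates the kinase Cdk1, with help from the phosphatase Cdc25c and the kinases Plk1 and Aurka. The spindle checkpoint then holds the cell until every kinetochore is attached, after which the anaphase-promoting complex, loaded with Cdc20, has cyclin B and other proteins destroyed and the cell divides. Most of these genes are transcribed late in the cell cycle, and their mRNA is low in cells that have left it, so in neural progenitors they serve as markers of cycling cells. In whole-culture RNA, more cells in mitosis and more of these transcripts in each cell cannot be told apart.

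The promoters are shown first because many of the mitosis genes hold a sequence feature that was not itself used to choose them. They were chosen as genes of mitosis, a class known for this feature, so its frequency here is not independent of the choice. Late cell cycle genes are known for a hexamer near the transcription start, the cell cycle genes homology region (CHR), which binds the MuvB core of the DREAM and B-Myb complexes, often with upstream CCAAT boxes, the site of the factor NF-Y. Windows from 250 bases before to 50 bases after each start, from RefSeq on GRCm38.p6, were found for 29 of the 33 genes. Aurkb, Ccna2, Cdc25c and Tpx2 had no entry. The motifs searched were TTTGAA and CCAAT on both strands, that is also TTCAAA and ATTGG, and a match of one can share at most 1 letter with a match of the other. The stretches below run from 100 bases before the start to 30 after it, on the gene's own strand, with base 101 as the first transcribed base and with matches to either motif in capitals. Of these stretches, 6 were chosen, after the matches were seen, because they hold the hexamer near the start. Ccnb1, which passed the test of expression, and Tacc3, which had the smallest difference, have no TTTGAA in the whole window. Only TTTGAA and TTCAAA were searched for the hexamer, so a window without a match is not shown to lack a CHR.
Ccnb2, cyclin B2, chr9:70421525-70421654, minus strand: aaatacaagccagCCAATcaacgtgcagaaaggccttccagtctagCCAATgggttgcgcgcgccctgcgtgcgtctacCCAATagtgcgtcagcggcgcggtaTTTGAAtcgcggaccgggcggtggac
Cdc20, activator of the anaphase-promoting complex, chr4:118437314-118437443, minus strand: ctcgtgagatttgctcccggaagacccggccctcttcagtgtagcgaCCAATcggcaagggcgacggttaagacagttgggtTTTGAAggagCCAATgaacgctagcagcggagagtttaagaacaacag
Ube2c, ubiquitin-conjugating enzyme, chr2:164769829-164769958, plus strand: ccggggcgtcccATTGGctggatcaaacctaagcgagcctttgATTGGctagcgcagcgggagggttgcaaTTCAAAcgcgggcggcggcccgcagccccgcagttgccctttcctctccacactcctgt
Cdk1, mitotic kinase, chr10:69352883-69353012, minus strand: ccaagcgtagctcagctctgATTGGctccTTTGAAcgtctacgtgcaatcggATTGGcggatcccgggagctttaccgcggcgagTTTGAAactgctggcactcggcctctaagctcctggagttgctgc
Cenpf, kinetochore protein, chr1:189688057-189688186, minus strand: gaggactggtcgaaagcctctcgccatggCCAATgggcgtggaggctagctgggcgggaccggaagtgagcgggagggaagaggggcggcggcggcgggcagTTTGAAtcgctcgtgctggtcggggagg
Ttk, checkpoint kinase, chr9:83834589-83834718, plus strand: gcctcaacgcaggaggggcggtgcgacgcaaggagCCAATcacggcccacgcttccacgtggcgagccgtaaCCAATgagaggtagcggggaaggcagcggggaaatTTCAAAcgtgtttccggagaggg
Ccnb1, cyclin B1, chr13:100786457-100786586, minus strand: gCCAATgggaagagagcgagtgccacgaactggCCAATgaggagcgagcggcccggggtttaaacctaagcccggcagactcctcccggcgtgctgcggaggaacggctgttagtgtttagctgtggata
Tacc3, spindle protein, chr5:33658028-33658157, plus strand: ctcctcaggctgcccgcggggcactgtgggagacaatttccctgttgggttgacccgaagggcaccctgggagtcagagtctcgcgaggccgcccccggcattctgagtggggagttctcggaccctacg

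TTTGAA on either strand lay within 50 bases of the start for 20 of the 29 genes (69.0%). The share was 3.69% of 10411 genes tested that had a window and 5.72% of all 27025 genes with one. This limit of 50 bases was set after the promoters were seen. Over the whole window the hexamer was present for 21 of the 29 (72.4%), against 13.9% of the genes tested. At least 1 CCAAT was found for 22 (75.9%), against 43.4%, and at least 2 for 17 (58.6%), against 17.1%. Both motifs stood in 1 window for 19 (65.5%), against 5.93% of the genes tested. Mitotic kinesins were alike, with the hexamer near the start in 8 of 13 (61.5%), whereas genes of DNA replication and S phase had it in 2 of 32 (6.25%) and a CCAAT in 20 (62.5%). These are matches of letters, counted without a test, and not sites shown to be bound.

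**Figure D1:**
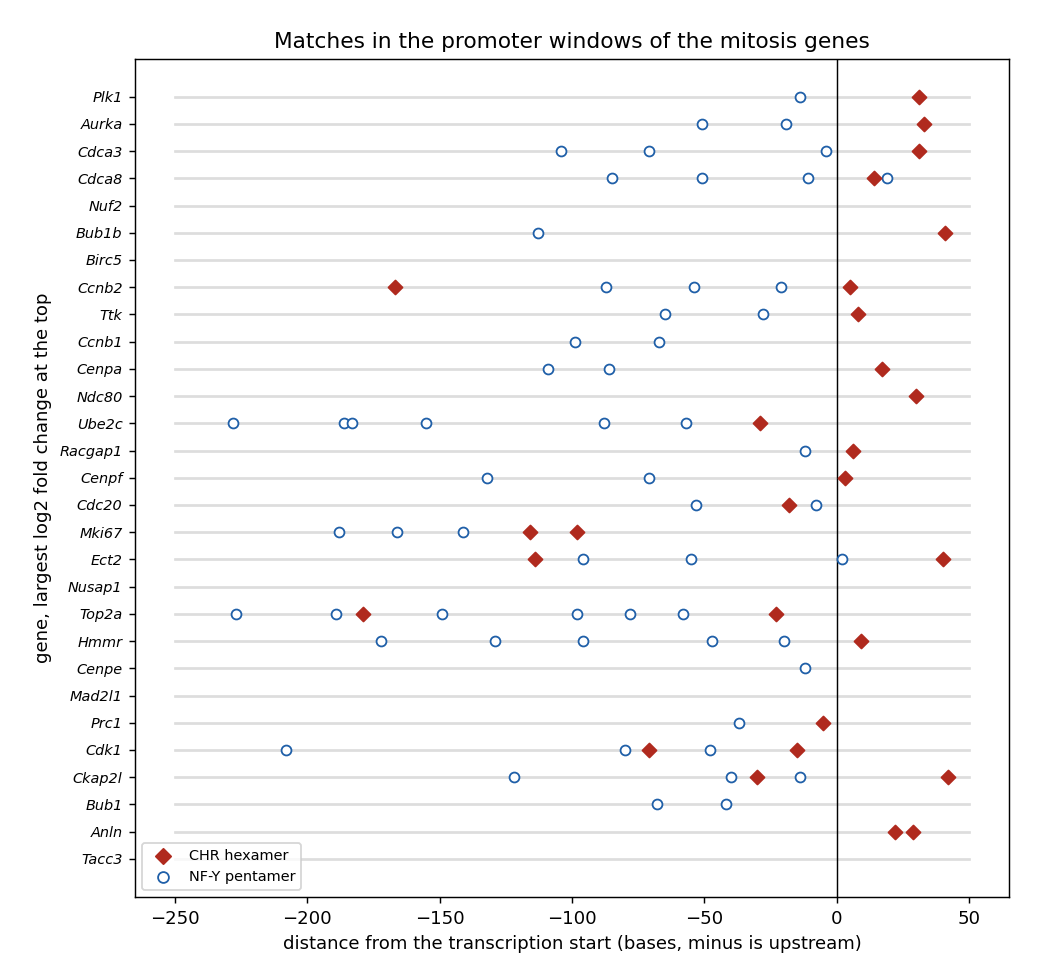
Matches in the RefSeq promoter windows of 29 mitosis genes, by distance from the transcription start in bases (minus is upstream), 1 line per gene, ordered by log2 fold change; for the 2 genes with 2 windows the first is drawn. Diamonds are the first base of the CHR hexamer and circles that of the NF-Y pentamer, on either strand; the diamonds gather within 50 bases of the start, in 20 of 29 genes.

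Qk itself was checked first. It was at 208 and 215 TPM in the control libraries and at 36.1 and 43.7 TPM in the Qk_KO libraries. Markers of glial progenitors and radial glia were present in every library, with a summed level of 6653 to 6842 TPM over 10 genes and Nfia, at 15.9 to 17.8 TPM, the lowest of them. One of these, the glutamate transporter gene Slc1a3, fell from 338 and 435 to 117 and 150 TPM. Qk_KO replicate 1 stood apart from the other 3 libraries, with Xist at 0.04 TPM against 57.6 to 62.5 and the Y-linked gene Eif2s3y at 35.4 TPM against 0. By these genes the 2 Qk_KO libraries are of different sex, so they are not repeats of 1 sample. These genes do not separate the 2 control libraries. Read depth is not kept by TPM and is unknown, so no counting error can be given.

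The mitosis genes were chosen with earlier results of these data known. Their contrasts with other genes may in part reflect that choice, which was not tested. All 33 mitosis genes were more abundant in both Qk_KO libraries than in both control libraries, where 33.6% of all genes tested were so placed. Their summed level was 661 TPM in control replicate 1, 458 TPM in control replicate 2, 1094 TPM in Qk_KO replicate 1 and 1042 TPM in Qk_KO replicate 2, a ratio of 1.91 between the group means. Tested over all genes (limma on log2(TPM + 1), p adjusted for 13260 genes), 3 of the 33 passed an adjusted p of 0.05 as higher, Ccnb1, Ccnb2 and Bub1b, 0 passed as lower and 30 did not pass. Among all genes tested 1.83% passed as higher and 1.42% as lower. The adjusted p of the 33 ran from 0.0426 to 0.259 with a median of 0.0645, and 31 had an unadjusted p under 0.05 with a higher level in Qk_KO, against 15.8% of all genes. The median log2 fold change was 0.97, against 0.04 over all genes tested, with a range of 0.31 to 1.35. It was at least 1 for 14 of the 33, against 2.75% of all genes.

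The 3 calls depended on having all 4 libraries. None of the 33 passed when any 1 library was left out. In those fits a lone library stands for its group and is assumed to vary like the other group, which alone gives the spread. An unadjusted p under 0.05 in limma was then reached by 25 to 32 of the 33, where 13.5% to 25.1% of all genes reached it, and all 33 differences stayed above 0. Leaving out control replicate 1 gave a median difference of 1.18, and leaving out control replicate 2 gave 0.68. With Qk_KO replicate 1 left out it was 0.93, and with Qk_KO replicate 2 left out 1.01. None passed with no filter on low genes or without limma's mean-variance trend, where 31 of the 33 had an unadjusted p under 0.05 in each. Other settings called more of the 33 as higher. A pseudocount of 0.1 gave 6 (2.54% of all genes), a filter at 5 TPM gave 10 (3.19%) and removal of the GC trend gave 14 (2.88%).

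**Figure D2:**
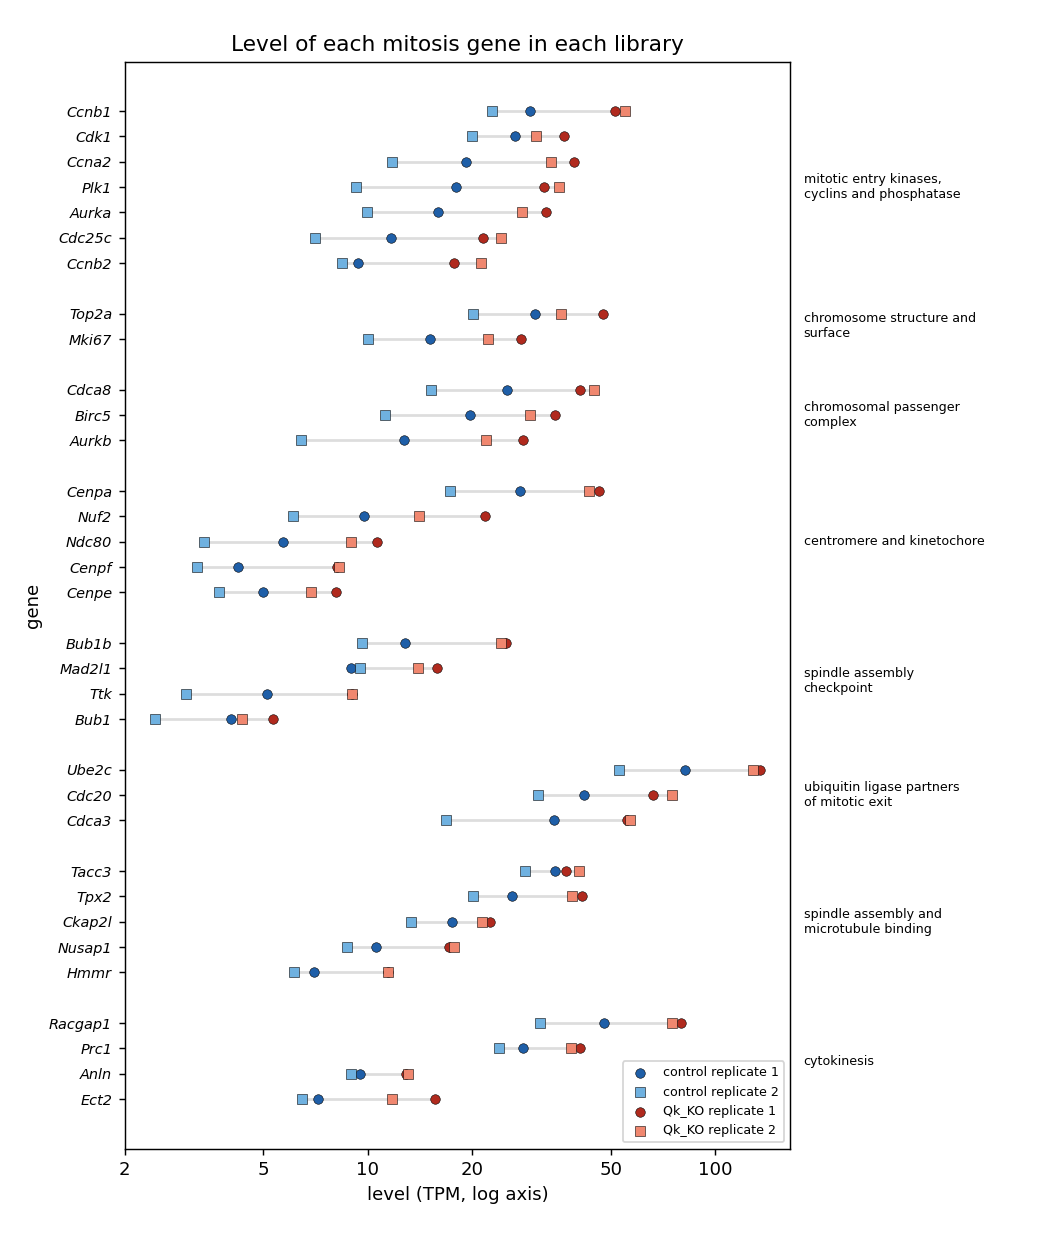
Level of each of the 33 mitosis genes (TPM, log axis) in the 2 control (blue) and 2 Qk_KO (red) libraries, 1 point per library, grouped by role. In every row both red points lie to the right of both blue points, the distance is smallest for Bub1 and Tacc3, and control replicate 2 (light blue squares) is the lowest library for 32 of the 33 genes.

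The control libraries differed from each other along the same genes. Control replicate 1 was above control replicate 2 for 32 of the 33, all but Mad2l1, with a median difference of 0.54 on the log2(TPM + 1) scale, where all genes tested had a median of 0.02. The Qk_KO libraries lay closer together, with replicate 1 above replicate 2 for 20 of the 33 and a median difference of 0.08. Aurkb, at 12.7 and 6.43 TPM, and Cdca3, at 34.3 and 16.8 TPM, differed by 1.97 and 2.05 times between the controls. Both had large differences between groups but adjusted p of 0.0686 and 0.0854 (limma).

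The 7 genes that drive entry into mitosis had the largest median difference of the 8 role groups, 1.19, and 2 of the 7 passed the test. Ccnb1 encodes cyclin B1, the main partner of Cdk1 at the onset of mitosis, and is encoded on the minus strand of chromosome 13 (GRCm38, 100778650 to 100786570). It was at 29.3 and 22.8 TPM in the control libraries and at 51.3 and 54.9 TPM in the Qk_KO libraries. The groups did not overlap, the lowest Qk_KO value being 1.75 times the highest control value. Ccnb1 rose by 1.01 on the log2 scale (SE 0.15, adjusted p = 0.0426, limma). Ccnb2, cyclin B2 (chromosome 9, 70407692 to 70421547, minus strand), was at 9.37 and 8.43 TPM in the controls and 17.7 and 21.1 TPM in Qk_KO. Its control values were within 1.11 times of each other, and it rose by 1.04 (SE 0.15, adjusted p = 0.0426, limma). The reference lists pseudogenes of both, Ccnb1-ps and Ccnb2-ps, and how reads shared with them were counted is not stated, so both levels are uncertain to that extent.

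The other 5 entry genes did not pass. Plk1, the polo-like kinase of centrosomes and kinetochores, was at 18.0 and 9.26 TPM against 32.1 and 35.5 TPM, with a log2 fold change of 1.32 (SE 0.29). The control replicates were 1.94 times apart and its adjusted p was 0.0655 (limma). Cdc25c, the phosphatase that activates Cdk1, was at 11.7 and 7.06 against 21.5 and 24.1 TPM, a log2 fold change of 1.23. Aurka, the centrosomal aurora kinase, was at 15.9 and 9.97 against 32.5 and 27.8 TPM, and Ccna2, cyclin A2 of S and G2 phase, at 19.1 and 11.7 against 39.2 and 33.6 TPM. In each of these 4 genes the lowest Qk_KO level was at least 1.75 times the highest control level. Cdk1 itself, the kinase that the cyclins bind, differed least, at 26.4 and 20 against 36.5 and 30.6 TPM, with a log2 fold change of 0.52 (SE 0.17) and an adjusted p of 0.128 (limma).

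Of the 2 genes of chromosome structure, neither passed. Mki67 encodes the Ki-67 protein that coats mitotic chromosomes and is the usual marker of cycling cells. It was at 15.1 and 9.99 TPM in control and 27.6 and 22.1 TPM in Qk_KO. Its difference was 0.95 on the log2 scale (SE 0.22) and did not pass (adjusted p = 0.0701, limma). Top2a, the topoisomerase that untangles sister chromatids, was at 30.2 and 20.1 against 47.4 and 36.0 TPM, with 0.72 (SE 0.23). In both genes Qk_KO replicate 1 was the highest library.

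The chromosomal passenger complex corrects faulty attachments and later directs cytokinesis, and its 3 genes here each had a log2 fold change above 1, with none passing the test. Aurkb, its kinase, had the largest difference of all 33 genes, from the control values given above to 27.9 and 21.8 TPM in Qk_KO (log2 fold change 1.35, SE 0.31). Cdca8, the borealin subunit, was at 25.1 and 15.2 against 40.7 and 44.6 TPM, and Birc5, survivin, at 19.6 and 11.2 against 34.6 and 29.3 TPM. Control replicate 2 was the lowest library for all 3.

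None of the 5 kinetochore and centromere genes passed. Cenpa, the histone H3 variant that marks centromeres, was the most abundant at 27.5 and 17.2 TPM in control and 46.1 and 43.1 TPM in Qk_KO, a log2 fold change of 1.0 (SE 0.22). Nuf2 and Ndc80, partners in the complex that grips microtubules, were at 9.73 and 6.09 against 21.7 and 14.0 TPM, and at 5.69 and 3.37 against 10.6 and 8.96 TPM. Nuf2 had the widest spread between Qk_KO libraries of the 33 genes, 1.55 times. Cenpf was at 4.22 and 3.23 against 8.16 and 8.29 TPM, where the lowest Qk_KO value was 1.93 times the highest control value, the widest gap of the 33 genes, and its adjusted p was 0.0513 (limma). Cenpe, at 4.98 and 3.73 against 8.11 and 6.88 TPM, had a log2 fold change of 0.67 (SE 0.19).

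Among the 4 spindle checkpoint genes Bub1b rose and 3 did not pass. Bub1b encodes BubR1, the checkpoint kinase-like protein that holds Cdc20 inactive, and is encoded on the plus strand of chromosome 2 (118598211 to 118641591). It was at 12.8 and 9.62 TPM in control and 25.0 and 24.1 TPM in Qk_KO, so that the Qk_KO libraries were within 1.04 times of each other. Its log2 fold change was 1.08 (SE 0.16, adjusted p = 0.0426, limma). Ttk, the kinase Mps1 that starts checkpoint signalling, was at 5.14 and 3 against 8.98 and 9 TPM. Mad2l1, which encodes Mad2, was at 8.95 and 9.49 against 15.8 and 13.9 TPM, with a log2 fold change of 0.63. Bub1, the kinase that recruits the others to kinetochores, was the lowest of the 33 genes in level, at 4.03 and 2.45 against 5.35 and 4.34 TPM. Its difference of 0.48 (SE 0.25) had a 95% interval of -0.13 to 1.10 and the highest adjusted p of the 33, 0.259 (limma), so it was not separated from 0.

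The 3 partners of ubiquitin ligases, grouped under mitotic exit although Cdca3 acts at entry, were among the 4 most abundant of the 33. None of these 3 passed. Ube2c, the ubiquitin-conjugating enzyme that works with the anaphase-promoting complex, was first of the 33 in level. It was at 81.7 and 53.0 TPM in control and 134 and 129 TPM in Qk_KO. Its log2 difference of 0.99 (SE 0.21) did not pass (adjusted p = 0.0600, limma). Cdc20, at 42.0 and 30.9 against 66.2 and 75.2 TPM, had a log2 fold change of 0.95 (SE 0.17) and an adjusted p of 0.0507 (limma), the nearest to the threshold of those that missed it. Cdca3, a trigger of mitotic entry that helps destroy the inhibitory kinase Wee1, was at 55.5 and 56.6 TPM in Qk_KO, a log2 fold change of 1.19 (SE 0.31). Each of these Qk_KO values was above every control value of its gene, by at least 1.57 times.

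Genes of spindle assembly differed less, with a median of 0.72 over 5 genes and none passing. Tacc3, which stabilises spindle microtubules with clathrin, had the smallest difference of all 33, at 34.5 and 28.3 TPM in control and 37.2 and 40.5 TPM in Qk_KO (log2 fold change 0.31, SE 0.13, 95% interval -0.03 to 0.64). The lowest Qk_KO value was 1.08 times the highest control value. Tpx2, the activator of Aurka on spindles, was at 25.9 and 20.1 against 41.3 and 38.6 TPM, and Nusap1, a microtubule-bundling protein, at 10.6 and 8.73 against 17.1 and 17.6 TPM. Hmmr, a spindle pole protein, was at 7.01 and 6.12 against 11.4 and 11.4 TPM. Ckap2l, another microtubule-associated spindle protein, was at 17.4 and 13.3 against 22.5 and 21.3 TPM, with a log2 fold change of 0.50.

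In the cytokinesis group the 4 genes had a median of 0.75 and none passed. Racgap1, a component of the central spindle, was second of the 33 in level, at 47.9 and 31.4 TPM in control and 79.6 and 74.8 TPM in Qk_KO (log2 fold change 0.97, SE 0.20, adjusted p = 0.0600, limma). Ect2, the exchange factor that Racgap1 binds, was at 7.17 and 6.45 against 15.6 and 11.7 TPM. Prc1, which bundles central spindle microtubules, was at 27.9 and 23.8 against 40.7 and 38.4 TPM. Anln, the scaffold of the contractile ring, was at 9.51 and 8.92 against 12.9 and 13.1 TPM. Its log2 difference was 0.45 with an SE of 0.13, and its adjusted p was 0.101 (limma). The replicates of Anln were within 1.07 times of each other in both groups.

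**Figure D3:**
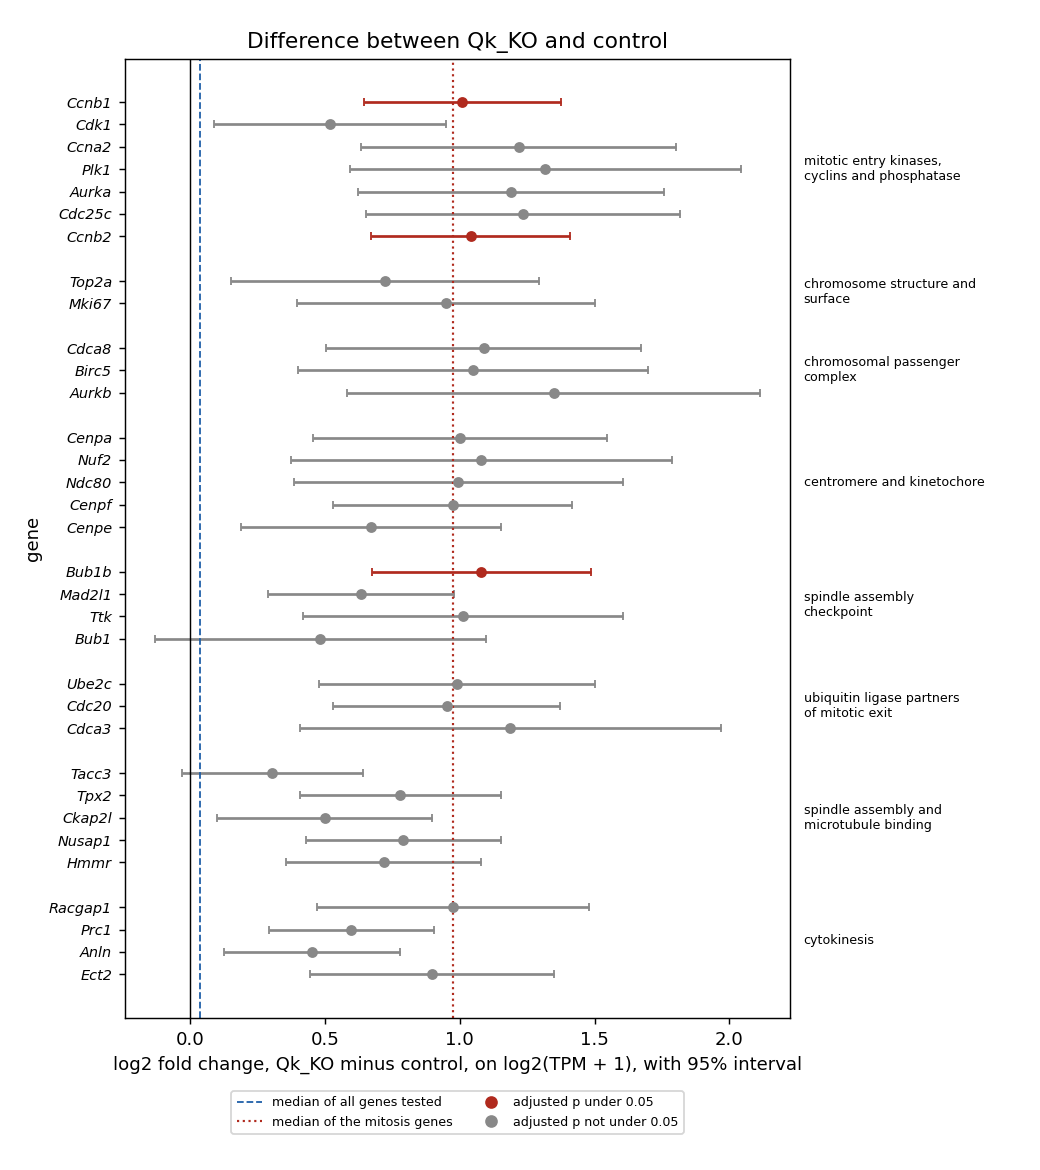
Log2 fold change of each mitosis gene, Qk_KO minus control on log2(TPM + 1), with its 95% interval from limma; red points passed an adjusted p of 0.05. All 33 points lie above 0, between 0.31 and 1.35, the intervals of Bub1 and Tacc3 reach below 0, and most intervals overlap.

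By group, the median difference was 1.19 for mitotic entry and 1.09 for the passenger complex. It was 0.99 for both the kinetochore genes and the partners of ubiquitin ligases. For chromosome structure it was 0.84, for the checkpoint 0.82, for cytokinesis 0.75 and for spindle assembly 0.72. The groups' ranges overlap and no test of the difference between groups was made. Genes with the hexamer near the start (20) had a median log2 fold change of 0.98 and a range of 0.45 to 1.32, and the 9 with a window and no such match a median of 0.79 and a range of 0.31 to 1.08. Outside all cell cycle lists, the 323 tested genes with the hexamer near the start had a median of 0.08, and 5 of them (1.55%) were called higher, against 0.03 and 1.66% for the 9888 without it. The 132 that also had a CCAAT had a median of 0.09, and 4 of them (3.03%) were called higher. The difference between these sets was not tested.

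Other genes of mitosis, in 5 lists without the 33, showed a smaller difference. These lists too were chosen with earlier results of these data known. Of 122 tested, 4 passed as higher and 0 as lower, against 1.83% and 1.42% of all genes tested. The log2 fold change was above 0 for 95, against 7219 of the 13260 genes tested, and the median was 0.40, against 0.04. Both Qk_KO libraries were above both controls for 79 (64.8%), against 33.6% of all genes tested, and below both for 14. The genes that rose were Arhgef39 (3.86 and 3.02 against 8.45 and 9.79 TPM), the centrosomal kinase gene Nek2 (6.53 and 4.88 against 12.3 and 12.7 TPM), Cdc25b, a further activator of Cdk1 (19.9 and 17.2 against 31.1 and 38.0 TPM), and Cks2, a small Cdk-binding protein (30.6 and 26.6 against 47.7 and 48.6 TPM). An unadjusted p under 0.05, in either direction, was found for 28.4% of all genes tested, the share against which the counts of the lists stand. The 16 subunits and partners of the anaphase-promoting complex had a median of -0.05 with 0 called and 5 at an unadjusted p under 0.05 in limma. Its most abundant members were Anapc5 at 277 and 241 against 356 and 343 TPM and Anapc13 at 207 and 196 against 236 and 228 TPM. Condensin and cohesin genes (22) had a median of 0.27 with 0 called and 5 at an unadjusted p under 0.05 in limma. Their most abundant members were Ncaph2 at 155 and 130 against 168 and 150 TPM and Rad21 at 144 and 147 against 162 and 148 TPM. The other 34 centromere and kinetochore genes had a median of 0.52 with 0 called and 18 at an unadjusted p under 0.05 in limma, and their most abundant members, Zwint and Bub3, had log2 fold changes of -0.10 and 0.16. The 30 other spindle, centrosome and cytokinesis genes had a median of 0.47, with 2 called higher and 19 at an unadjusted p under 0.05 in limma. For the 20 other entry and exit regulators tested the median was 0.46, with 2 called higher and 10 at such a p. The differences between the lists were not tested.

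Mitotic kinesins, the motors of the spindle, had a median log2 fold change of 0.89 over 14 genes, close to that of the 33. Their lowest log2 fold change was -0.29. Both Qk_KO libraries were above both controls for 11 of the 14, against all 33 mitosis genes, and below both for 1. Of the 14, 1 was called higher, Kif20a, at 13.0 and 8.62 against 24.2 and 25.7 TPM. The share called higher among all genes tested was 1.83%. Foxm1, the factor that activates late cell cycle genes, was at 19.5 and 12.8 TPM in control and 32.8 and 29.4 TPM in Qk_KO (log2 fold change 0.93, SE 0.21, adjusted p = 0.0662, limma). Mybl2, which encodes B-Myb, was at 9.27 and 5.44 against 18.4 and 9.97 TPM. Neither passed, and the adjusted p of Mybl2 was 0.182 (limma), with Qk_KO replicate 2 near control replicate 1. Of the 23 regulators of mitosis genes, E2f5 fell, from 24.6 and 24.0 to 10.8 and 8.49 TPM (log2 fold change -1.26, adjusted p = 0.0339, limma). The other 22 did not pass. The share called lower among all genes tested was 1.42%.

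Genes of DNA replication and S phase, which act earlier in the cycle, separated the 2 Qk_KO libraries where the mitosis genes did not. Relative to each gene's control mean, the S phase list (42 genes) had a median of 0.82 in Qk_KO replicate 1 and 0.19 in replicate 2, on the log2(TPM + 1) scale. The 33 mitosis genes had 1.01 and 0.93. The difference between the lists was 0.19 in Qk_KO replicate 1 and 0.74 in Qk_KO replicate 2. In the controls it was 0.09 and -0.09, values that mirror each other because deviations were taken from the mean of these 2 libraries. Both lists also separated the controls. Control replicate 1 was above replicate 2 for 40 of the 42 S phase genes and 32 of the 33 mitosis genes. The median differences were 0.37 and 0.54. All 42 S phase genes were higher in Qk_KO replicate 1 than in replicate 2, against 20 of the 33 mitosis genes. Pcna, the polymerase clamp, was at 156 and 152 TPM in control and 250 and 169 TPM in Qk_KO, and Rrm2, the ribonucleotide reductase subunit, at 94.1 and 53.6 against 162 and 77.9 TPM. In limma 0 of the 42 were called, with 12 at an unadjusted p under 0.05 in either direction, about the share found over all genes. The direction was not that of all genes. The log2 fold change was above 0 for 37 of the 42, against 7219 of the 13260 genes tested, with a median of 0.55, against 0.04. Both Qk_KO libraries were above both controls for 23 (54.8%), against 33.6% of all genes tested. Each library is 1 sample, so the difference between the Qk_KO libraries has no replicate check.

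**Figure D4:**
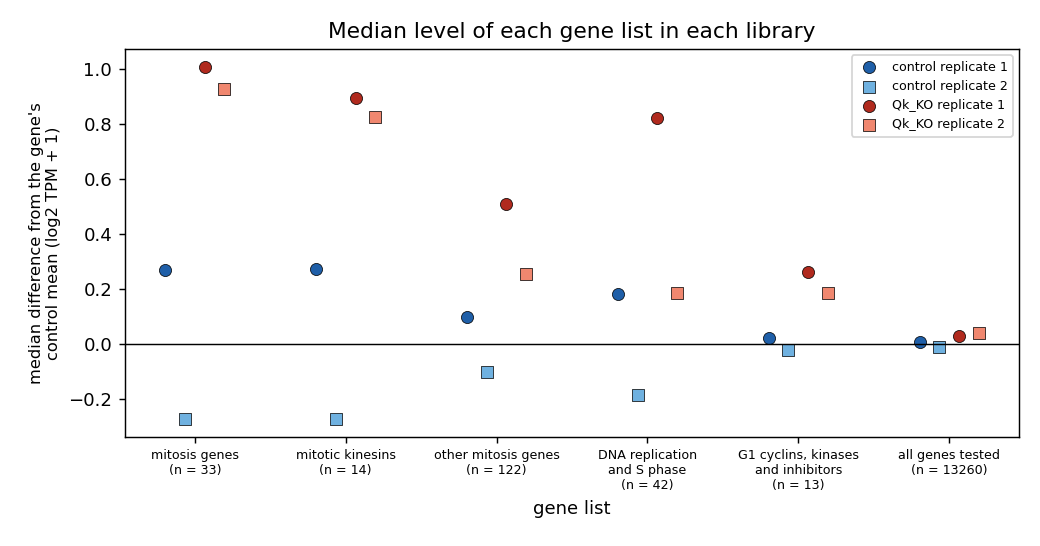
Median difference of each list's genes from their control mean (log2(TPM + 1)) in each of the 4 libraries; n is the number of genes tested. The mitosis genes and the mitotic kinesins are near 1 in both Qk_KO libraries, the S phase list is at 0.82 in Qk_KO replicate 1 and 0.19 in replicate 2, and all genes tested stay near 0.

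Among markers of other cell types, 2 of 10 for neurons passed the test as higher. Of 7 tested each, 1 astrocyte marker passed as higher and 1 oligodendrocyte lineage marker as lower. For neurogenic intermediate progenitors, microglia, endothelial cells and fibroblasts 0 passed. Over all genes tested 1.83% passed as higher and 1.42% as lower. The summed level of 10 neuronal markers was 329 to 519 TPM in control and 730 to 799 TPM in Qk_KO. Tubb3 and Map2 were the most abundant of them. Of the 10, 4 were higher in both Qk_KO libraries than in both controls, near the 33.6% of all genes tested so placed. Ina rose from 30.3 and 15.7 to 82.4 and 99.7 TPM and Snap25 from 18.2 and 12.8 to 31.6 and 37.5 TPM. The 10 microglia and macrophage markers summed to 46.2 to 55.0 TPM in control and 18.4 to 26.5 TPM in Qk_KO. All 7 that were tested were lower in both Qk_KO libraries than in both controls, against 3651 of the 13260 genes tested. Their median log2 fold change was -1.08, and 6 had an unadjusted p under 0.05 in limma, against 28.4% of all genes. The 7 astrocyte markers summed to 241 to 248 against 333 to 412 TPM, and the 9 oligodendrocyte lineage markers to 649 to 727 against 586 to 674 TPM, with Mog at 0 in all 4 libraries. Of the 7 astrocyte markers 3 had a log2 fold change above 0 and the median was -0.07. Of the 7 oligodendrocyte lineage markers tested 1 had a log2 fold change above 0 and the median was -0.74. Over all genes tested 7219 of 13260 were above 0. Aqp4, a water channel of astrocytes, rose from 3.83 and 4.88 to 29.3 and 35.1 TPM, and Pdgfra, which marks oligodendrocyte precursor cells, fell from 53.1 and 35.8 to 5.37 and 12.1 TPM. The 9 markers of neurogenic intermediate progenitors summed to 146 to 209 against 188 to 330 TPM, where Dlx1 and Dlx2 were at 36.7 and 76.0 TPM in Qk_KO replicate 1 and at 0.40 and 1.70 TPM in replicate 2. The 6 endothelial markers summed to 4.99 to 6.89 TPM over all libraries, with Cdh5 and Cldn5 at or below 0.05 TPM, and the 6 fibroblast and pericyte markers to 29.0 to 41.1 TPM. The part of these cell types in the difference of the mitosis genes was not tested.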

How the data were processed

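The authors deposited 1 table per library with TPM per gene, each adding up to the same fixed total. STAR 2.4.1d, RSEM 1.3.0 and the builds mm10 and GRCm38.p4 are named in the submitters' processing notes. The annotation, strand setting and read depth are not stated there or in the labels. TPM is a share, so a rise of some genes lowers others.

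Values were taken as log2(TPM + 1). Genes whose mean reached 1 TPM were fitted with limma 3.58.1 in R 4.3.3 (lmFit, eBayes with trend, two-sided, 5.57 degrees of freedom), with Benjamini-Hochberg adjustment over 13260 genes and a threshold of 0.05. An exact test of 2 against 2 libraries cannot go below 0.333. The pseudocount makes fold changes of low genes too small. The fit was tested on simulated data. The members and lists were chosen with earlier results of these data known. Of 282 list entries, all were matched, 4 of them by gene number. Every one of the 33 genes was named. Values per library were to be given for those called and for the most abundant, largest and smallest of each role, and were given for all. From other lists up to 3 called genes, or the 2 most abundant, were named, with Foxm1, Mybl2, Pcna, Ccnd1 and Qk. Aurkb, Cdca3 and others named for a spread or a gap were singled out after their values were seen. Gene positions and GC content came from GENCODE M21 (GRCm38) and promoters from RefSeq. The hexamer window was set after the promoters were seen. Figures were drawn with matplotlib 3.10.9.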

Additional observations from a re-analysis of the deposited data

How the results depend on the processing

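All 33 differences stayed above 0 in each of 15 alternatives that still tested the gene (32 genes with the filter at 5 TPM). Most of these could not turn a sign, since the groups did not overlap. Median-ratio scaling and quantile normalization could have, and gave medians of 0.94 and 0.90. Removal of the GC trend, with or without the replicate block, could have too, and gave a median of 0.998. Ccnb1, Ccnb2 and Bub1b passed in 9 of the 15. The number of the 33 called higher was 6 with a pseudocount of 0.1, 10 with the filter at 5 TPM, 14 with the GC trend removed, 26 with the replicate block, 30 with the replicate block and the GC trend removed, and 0 with no filter, without limma's trend and without any 1 library. Over all genes 584 were called with a pseudocount of 0.1, 649 were called with the filter at 5 TPM, 673 with the GC trend removed, 1278 with the replicate block, 1577 with the block and the GC trend removed, 41 without trend, 0 with no filter (4327 at an unadjusted p under 0.05 in limma) and 4 to 148 when 1 library was left out (control replicates 1 and 2 left out gave 10 and 4, Qk_KO replicates 1 and 2 left out gave 60 and 148), against 430. The higher counts at 5 TPM come with fewer genes tested, 10813. For the rest the cause was not tested. Same-numbered libraries deviated together with a correlation of 0.114 over genes. Nothing in the labels pairs them, so the block is an alternative reading and not a paired result. The median GC content of the 33 was 46.8% against 51.0% over the genes tested. TPM keeps no depth, so what read number limits cannot be stated.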

Other observations

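Genes that control the step into the cycle were mixed in direction. Of 13 G1 cyclins, kinases and inhibitors, 0 were called higher and 1 lower, against 1.83% and 1.42% of all genes tested. A log2 fold change above 0 was found for 9, against 7219 of the 13260 genes tested. Both Qk_KO libraries were above both controls for 5, against 33.6%, and 6 had an unadjusted p under 0.05 in limma, against 28.4%. The median log2 fold change of the 13 was 0.21 with a range of -1.13 to 1.42, and no test compared them with the mitosis genes. Ccnd1, cyclin D1, fell from 66.1 and 80.5 to 29.6 and 36.3 TPM (log2 fold change -1.13, SE 0.15, adjusted p = 0.0404, limma). Ccnd2 was at 389 and 489 against 363 and 292 TPM. The inhibitor genes Cdkn1a and Cdkn1c, which encode p21 and p57, were at 273 and 361 against 180 and 234 TPM and at 84.1 and 203 against 45.4 and 85.1 TPM, and did not pass. Cdkn2a, which encodes p16 and p19Arf, was at 13.8 and 17.5 against 68.0 and 27.3 TPM, also not called, and had the highest log2 fold change of the list. These genes, other than Ccnd1, were chosen after their values were seen.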
